A study of Rattus norvegicus with 105 samples.

Results

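WY-14643 is a synthetic agonist of the peroxisome proliferator-activated receptor α (PPARα), and its effect on the transcripts of cultured rat hepatocytes was measured in 3 wells against 3 wells with the vehicle DMSO and 3 wells with plain medium. These 9 libraries were chosen by their labels from 105 libraries of the series: they are the WY-14643, DMSO and medium wells of the first of 2 library sets, called set 1. The series is on nitromethane, nitroethane and 1-nitropropane, and WY-14643 was its reference activator of PPARα. All wells held primary hepatocytes of female Sprague-Dawley rats from a single commercial cell lot, cultured in collagen-coated plates in serum-containing Williams' E Medium and exposed for 24 h. WY-14643 was given at 50 µM. Its 3 wells carry the treatment names WY140, WY141 and WY142 in the labels, of which only the ending differs, and they were taken as replicates of the same treatment. DMSO is given as 0.2% in the treatment protocol and as 0.5 in the sample titles. The labels do not state whether the WY-14643 wells also held DMSO, so both controls were used throughout. The ages of the rats were not given, and the wells of a group share the cell lot, so that the p-values reflect well-to-well spread, which may be technical, rather than differences among animals.

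PPARα is a nuclear receptor of the liver that is activated by fatty acids. It pairs with the retinoid X receptor (RXR) and binds response elements made of a direct repeat with a spacing of a single base (DR1). Its targets carry fatty acids into the cell's mitochondria and peroxisomes and oxidise them there, and rodents given PPARα agonists are known for an increase in liver peroxisomes. The measurements came from TempO-Seq, an assay in which pairs of detector oligonucleotides are ligated on a transcript and counted by sequencing. The labels name a human panel, but the gene symbols in the table are those of rat. Each probe gives its own count, a gene may have more than 1 probe, and levels are given as CPM, counts relative to the library total scaled by TMM factors, a normalisation that sets the bulk of probes equal between libraries. A probe was called higher or lower where the quasi-likelihood test of edgeR gave an adjusted p under 0.05, with p-values adjusted by the Benjamini-Hochberg method across the 12102 probes tested. Changes are log2 fold changes ± SE, and every group had n = 3 wells.

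The 9 libraries held 7982203 to 9661599 counts, with counts in 13675 to 14312 of 22253 probes, and 3 counts corresponded to 0.311 to 0.376 CPM. Among the WY-14643 wells, replicate 3 stood apart: its counts differed from those of replicates 1 and 2 by a chi-square per degree of freedom of 15.02 and 18.3, against 4.99 between replicates 1 and 2, and no pair of control wells exceeded 9.17. WY-14643 replicates 1 and 2 had counts in 14168 and 14312 probes, more than the 13620 to 13945 of the other 22 control and reference compound libraries of set 1, replicate 3 included. Hepatocyte markers were high in every well: the summed level of the 7 markers on the panel was 8272 to 10185 CPM with WY-14643, 13704 to 15092 CPM with DMSO and 8329 to 10463 CPM in medium. All 8 endothelial and all 7 lymphocyte markers stayed under 1 CPM, as did 6 of 8 Kupffer cell markers, whose sum was 1.99 to 4.57 CPM over the 9 wells. Of 7 stellate cell markers 6 stayed under 1 CPM, Reln being the exception, and the sum was 329 to 346 CPM with WY-14643, 416 to 424 CPM with DMSO and 328 to 382 CPM in medium. Of the 6 cholangiocyte markers Krt7 and Cftr stayed under 1 CPM, and the sum was 623 to 738 CPM with WY-14643, 568 to 638 CPM with DMSO and 634 to 735 CPM in medium. On the plate WY-14643 took row F, DMSO row B and medium row A, and the replicates 1 to 3 took columns 10 to 12, so group and row cannot be told apart.

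Transcripts of 4 genes set as markers of the PPARα response, chosen with earlier results of these data known, were low in both controls and high in each WY-14643 well. Fabp1, the liver fatty acid binding protein, measured 3777, 4466 and 2750 CPM in the WY-14643 wells, 185, 176.5 and 259 CPM in the DMSO wells and 33.3, 35.2 and 46.2 CPM in the medium wells. Acot1, a cytosolic acyl-CoA thioesterase, measured 94.3, 121 and 92.3 CPM with WY-14643, 5.18, 5.41 and 7.63 CPM with DMSO and 1.05, 0.379 and 1.02 CPM in medium. The lowest WY-14643 well thus lay above the highest control well by a wide margin for both genes, and DMSO lay above medium. Ehhadh, the bifunctional enzyme of peroxisomal β-oxidation, measured 47.1, 63.1 and 34.2 CPM with WY-14643, 2.59, 3.37 and 2.05 CPM with DMSO and 1.52, 2.15 and 2.50 CPM in medium. Pdk4, a kinase that switches off pyruvate dehydrogenase, measured 78.5, 92.4 and 51.6 CPM with WY-14643, 7.77, 6.73 and 6.95 CPM with DMSO and 3.75, 3.03 and 3.41 CPM in medium. Ehhadh and Pdk4 also showed no overlap between WY-14643 and either control.

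Against medium the log2 changes were 6.58 ± 0.38 for Fabp1 (adjusted p = 2.93e-09, edgeR quasi-likelihood test), 6.92 ± 0.49 for Acot1 (adjusted p = 5.28e-09), 4.54 ± 0.31 for Ehhadh (adjusted p = 6.01e-12) and 4.44 ± 0.28 for Pdk4 (adjusted p = 2.26e-12). The choice of control moved Fabp1 and Acot1 most: against DMSO the change of Fabp1 was 4.15 ± 0.33 and that of Acot1 4.07 ± 0.38, while Ehhadh was at 4.17 ± 0.30 and Pdk4 at 3.37 ± 0.25. The other reference compounds of set 1, called the other compounds here, were rifampin (20 and 40 µM), CITCO (10 and 20 µM) and benzo[a]pyrene (50 µM), with 15 wells in 5 groups. The nitromethane and nitroethane wells of set 1 were left out. The reference compounds are known as activators of the xenobiotic receptors PXR, CAR and AhR, and the labels state that CITCO is less potent on rat CAR. Every WY-14643 well was above all of these 15 wells for the 4 genes, with changes against their mean of 5.36 ± 0.19 for Fabp1, 4.55 ± 0.22 for Acot1, 4.19 ± 0.17 for Ehhadh and 3.38 ± 0.15 for Pdk4. Acot1 had its highest mean outside WY-14643 with CITCO at 20 µM, 13.3 ± 2.40 CPM (SD, n = 3).

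**Figure D1:**
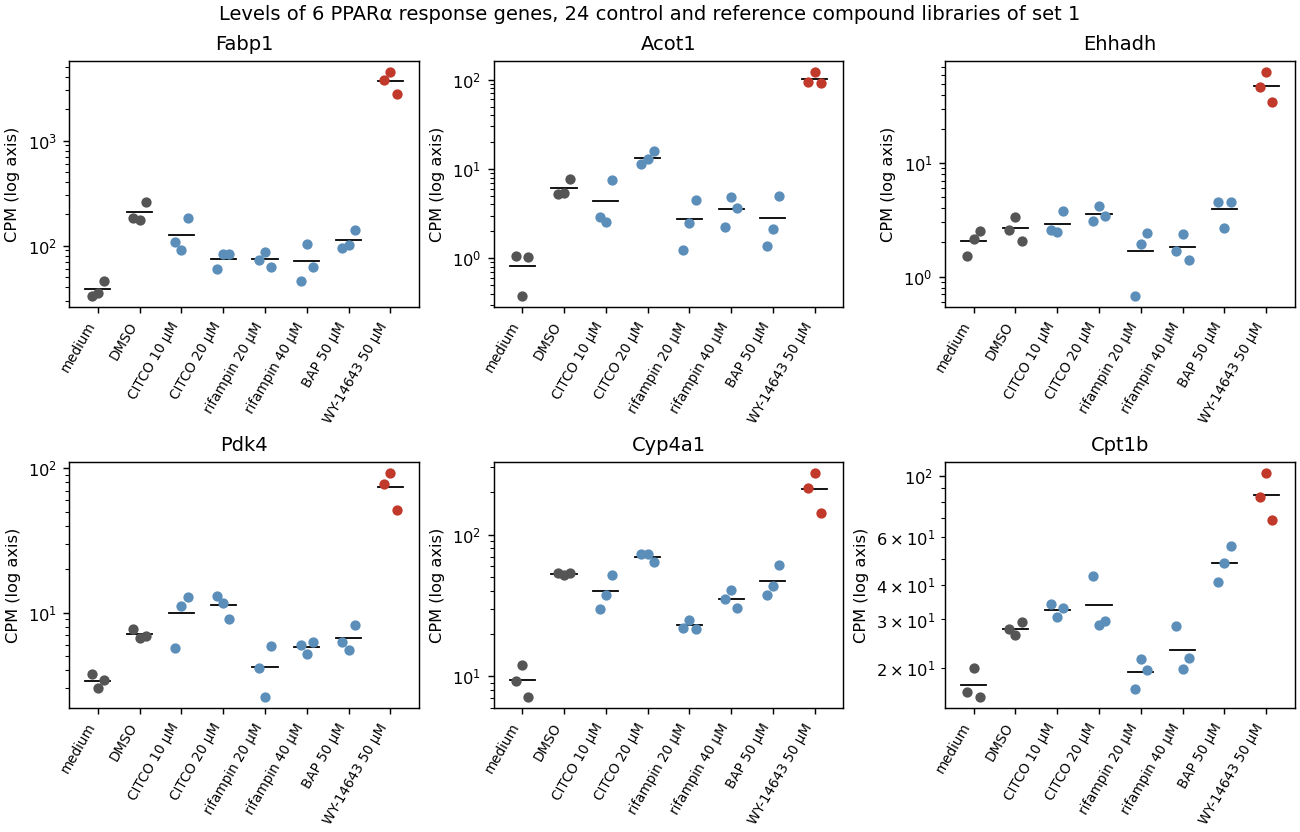
Levels of 6 PPARα response genes in the 24 control and reference compound libraries of set 1 (CPM on a log axis, 1 panel per gene). Points are wells, lines are group means of 3 wells, and WY-14643 is in red, DMSO and medium in grey and the other compounds in blue. The lowest WY-14643 well of Cpt1b stood at 69.1 CPM and that of Cyp4a1 at 142 CPM, above every other well in the panel.

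The promoters of the responding fatty acid genes were searched for the DR1 letters because PPARα binds that arrangement. RefSeq promoter sequences (build GRCr8) were found for 35 of the 42 genes asked for, which were the fatty acid genes higher against both controls, together with Pdk4. The 250 bases before each gene start were searched on both strands for AGGTCANAGGTCA with at most 1 mismatch in its 12 fixed letters. A match stood in 4 of the 35 genes, which is 11.4%, and no match among the 4 was exact. Of all 33469 promoter entries 0.368% had a match. The first share counts genes, each by its best entry, and the second counts entries, so the units differ. The genes were chosen by their rise, so the shares are a description, and a match does not show a site that is used. The 4 sequences are printed on the gene's strand, 5′ to 3′ up to the last base before the start, with the match in capitals. Fabp1, on the + strand at chr4:104749090-104749339, has the match on the opposite strand from base -77, Acot12, the acetyl-CoA hydrolase (+ strand, chr2:24721709-24721958), from base -105, Acot4, a peroxisomal thioesterase (+ strand, chr6:109399604-109399853), from base -13, and Acadvl, the very long-chain acyl-CoA dehydrogenase of mitochondria (- strand, chr10:55236706-55236955), has it in the forward direction from base -17.
Fabp1: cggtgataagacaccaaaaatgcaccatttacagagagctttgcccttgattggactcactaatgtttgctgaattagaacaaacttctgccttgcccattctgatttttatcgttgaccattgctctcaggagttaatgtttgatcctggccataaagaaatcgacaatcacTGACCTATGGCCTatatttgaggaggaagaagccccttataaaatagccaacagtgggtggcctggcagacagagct
Acot12: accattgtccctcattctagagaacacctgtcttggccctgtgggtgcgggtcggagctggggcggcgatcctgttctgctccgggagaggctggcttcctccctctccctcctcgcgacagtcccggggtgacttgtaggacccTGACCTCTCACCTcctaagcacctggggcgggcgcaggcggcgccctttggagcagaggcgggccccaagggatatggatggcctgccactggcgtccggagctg
Acot4: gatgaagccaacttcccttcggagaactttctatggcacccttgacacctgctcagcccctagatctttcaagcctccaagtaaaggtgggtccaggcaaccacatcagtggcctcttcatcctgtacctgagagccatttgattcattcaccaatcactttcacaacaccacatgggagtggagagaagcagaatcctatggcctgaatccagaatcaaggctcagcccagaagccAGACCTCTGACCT
Acadvl: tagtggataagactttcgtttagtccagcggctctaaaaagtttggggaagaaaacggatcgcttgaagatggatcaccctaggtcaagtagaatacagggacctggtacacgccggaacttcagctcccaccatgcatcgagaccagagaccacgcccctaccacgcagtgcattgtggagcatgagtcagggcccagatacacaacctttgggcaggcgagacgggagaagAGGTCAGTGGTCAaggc
Genes without an entry included Acaa2, Acadl, Cpt1b, Cyp4a1, Decr1 and Ech1.

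Beyond the markers, 168 probes differed from both controls in the same direction (1.39% of those tested), of which 133 were higher (1.1%) and 35 lower (0.289%). Under scaling by library totals these counts were 212 and 10. The 9 lists of fatty acid uptake, transport, oxidation, thioester cleavage, ketogenesis and storage held 123 probes for 114 genes. Of these probes 42 were higher than both controls, which is 34.1% against the 1.1% of all probes. None was lower than both, though 2 were lower than DMSO and 1, a probe of Acsm2, was lower than medium. The call of Acsm2 was lost without WY-14643 replicate 2 or medium replicate 1, under library totals, and with the probes of a gene summed. The median log2 change over the 123 probes was 0.33 against DMSO and 0.52 against medium, while the medians over all probes were 0.0062 and -0.0017. The lists were drawn up with earlier results of these data known and are not independent evidence. Leaving out any single well of the 3 groups left 36 to 48 fatty acid probes higher than both controls, while the count over all probes ran from 60 to 324 higher and from 3 to 158 lower. The 168 probes called in all became 103 when DMSO replicate 1 was left out, 104 when DMSO replicate 2 was and 99 when WY-14643 replicate 1 was. Without WY-14643 replicate 3 the counts were 324 higher and 158 lower, and all 42 fatty acid probes remained called. Without WY-14643 replicate 2 they were 60 higher and 3 lower, with 36 of the 42 kept.

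**Figure D2:**
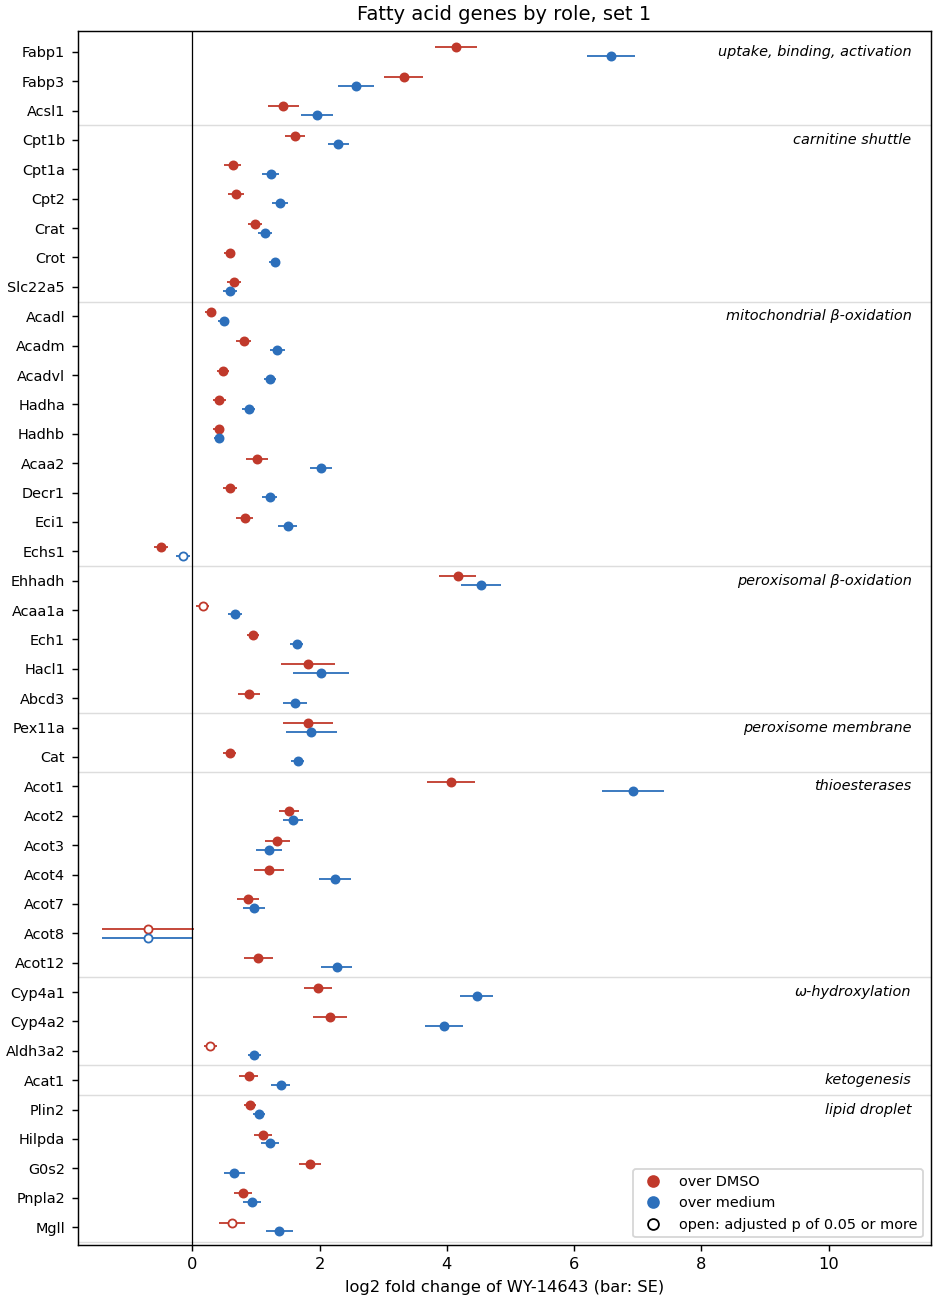
Log2 fold change of WY-14643 over DMSO (red) and over medium (blue) for fatty acid genes named in the text and some of their neighbours in the lists, ordered by role, with SE as bars; for a gene with several probes, the probe with the highest WY-14643 level is drawn. Filled points passed an adjusted p of 0.05. Fabp1, Acot1 and Ehhadh lie farthest to the right, and Echs1 is the filled point left of 0.

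Among genes of fatty acid uptake, binding and activation, 3 of 15 probes were higher than both controls (1.1% of all probes), Fabp1, Fabp3 and Acsl1. Fabp3, the fatty acid binding protein otherwise known from heart and muscle, measured 54.8, 71.2 and 30.2 CPM with WY-14643, 5.80, 4.09 and 5.69 CPM with DMSO and 8.79, 6.57 and 10.8 CPM in medium. Fabp3 lay higher in medium than in DMSO, the reverse of Fabp1 and Acot1. The 3 WY-14643 wells were above every control well, and the change of Fabp3 was 3.32 ± 0.30 against DMSO and 2.57 ± 0.29 against medium (adjusted p = 5.97e-07, edgeR). Acsl1, which joins coenzyme A to long-chain fatty acids, measured 574, 623 and 434 CPM with WY-14643, 202, 204 and 198 CPM with DMSO and 140, 143 and 137 CPM in medium. Its change was 1.43 ± 0.25 against DMSO and 1.96 ± 0.25 against medium. Slc27a2, a transporter and very long-chain acyl-CoA synthetase, passed against medium at 1.95 ± 0.20 and was at 0.08 ± 0.19 against DMSO, where the wells of both groups overlapped.

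The carnitine shuttle, which moves acyl groups across the mitochondrial membranes, had 6 of 9 probes higher than both controls (1.1% of all probes). Each of the alternatives run gave 6 higher than DMSO and 6 higher than medium. Cpt1b, the muscle-type carnitine palmitoyltransferase, rose most, with 84.1, 102 and 69.1 CPM in the WY-14643 wells, 27.6, 26.3 and 29.3 CPM in the DMSO wells and 16.4, 20.0 and 15.7 CPM in the medium wells. Its log2 change was 1.62 ± 0.16 against DMSO (adjusted p = 7.38e-08, edgeR) and 2.29 ± 0.17 against medium. Cpt1a, the liver-type enzyme, rose less, by 0.64 ± 0.13 against DMSO and by 1.24 ± 0.13 against medium, and Cpt2 on the inner membrane by 0.68 ± 0.12 and 1.38 ± 0.13. Crat and Crot, the carnitine acetyl- and octanoyltransferases, rose by 0.99 ± 0.10 and 0.59 ± 0.09 against DMSO. The carnitine importer Slc22a5 has 2 probes: the one with the higher level rose by 0.66 ± 0.11 against DMSO, and the other was at 0.53 ± 0.33 and did not pass (adjusted p = 0.434, edgeR).

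In mitochondrial β-oxidation 8 of 15 probes were higher than both controls (1.1% of all probes). The largest change was that of Acaa2, the thiolase of the last step, with 961, 951 and 777 CPM with WY-14643, 472, 464 and 396 CPM with DMSO and 241, 225 and 197 CPM in medium. Acaa2 rose by 1.01 ± 0.17 against DMSO and by 2.02 ± 0.18 against medium, so the DMSO wells lay between the other groups without overlap. The dehydrogenases Acadm (0.81 ± 0.12 against DMSO), Acadvl (0.48 ± 0.09) and Acadl (0.29 ± 0.08) remove the first hydrogens from acyl-CoA. The call of Acadl against DMSO was lost without any of the DMSO wells or without WY-14643 replicate 1 or 2. The trifunctional protein subunits Hadha (0.43 ± 0.10) and Hadhb (0.41 ± 0.08) also rose, that of Hadha not passing without DMSO replicate 3 or WY-14643 replicate 2. The auxiliary enzymes Decr1 (0.59 ± 0.11) and Eci1 (0.82 ± 0.14), which handle double bonds, made up the rest. Echs1, the short-chain enoyl-CoA hydratase, went the other way: it measured 308, 305 and 302 CPM with WY-14643 and 483, 424 and 374 CPM with DMSO, a fall of 0.49 ± 0.11 on the log2 scale (adjusted p = 0.0066, edgeR) that did not pass without DMSO replicate 1. Against medium Echs1 was at -0.14 ± 0.11 and did not pass.

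In peroxisomal β-oxidation 7 of 21 probes were higher than both controls (1.1% of all probes). Ehhadh, given above, had the largest change of those described here. Ech1, an enoyl-CoA isomerase, measured 531, 596 and 419 CPM with WY-14643 and 263, 277 and 258 CPM with DMSO, and rose by 0.96 ± 0.10. Hacl1, a lyase of α-oxidation, rose by 1.82 ± 0.43 against DMSO from 2.15 CPM and did not pass without WY-14643 replicate 2, while Nudt7, a hydrolase of coenzyme A, rose by 1.02 ± 0.18 and the peroxisomal transporter Abcd3 by 0.89 ± 0.18. Acaa1a, the peroxisomal thiolase, was at 0.16 ± 0.11 against DMSO and did not pass, and it passed against medium at 0.67 ± 0.11.

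Genes that build and enclose peroxisomes mostly were not called. Of 20 probes in that list 2 were higher than both controls (1.1% of all probes): Pex11a, which elongates and divides peroxisomes, and Cat, the catalase of their matrix. Pex11a measured 11.9, 12.2 and 5.98 CPM with WY-14643, 1.97, 1.44 and 5.01 CPM with DMSO and 2.93, 2.15 and 3.07 CPM in medium, and rose by 1.82 ± 0.40 against DMSO, a call lost without DMSO replicate 1 or 2. WY-14643 did not overlap either control, but its replicate 3 lay little above DMSO replicate 3, and the medium wells lay within the range of the DMSO wells. Cat rose by 0.59 ± 0.10 against DMSO and by 1.65 ± 0.11 against medium. Slc25a17, a carrier of the peroxisomal membrane, fell by 0.32 ± 0.09 against DMSO (adjusted p = 0.039, edgeR), a call lost without any of the 3 DMSO wells or without WY-14643 replicate 1 or 2, and it was at 0.08 ± 0.09 against medium.

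Acyl-CoA thioesterases release free fatty acids from coenzyme A. Of their 9 probes 7 were higher than both controls (1.1% of all probes) and 7 were higher than the mean of the other compounds (4.24%). Acot2 measured 64.7, 65.9 and 64.8 CPM with WY-14643, 21.8, 17.7 and 28.5 CPM with DMSO and 20.5, 21.6 and 23.3 CPM in medium, and rose by 1.52 ± 0.15 against DMSO. Acot3 rose by 1.34 ± 0.20 and Acot4 by 1.21 ± 0.23. Acot12 rose by 1.04 ± 0.23 against DMSO, a call lost without WY-14643 replicate 2, and by 2.27 ± 0.25 against medium. The cytosolic Acot7 has 2 probes that moved by different amounts, 2.49 ± 0.28 and 0.88 ± 0.18 against DMSO. Acot1 to Acot4 are close relatives and the probe sequences were not used here, so counts shared between them cannot be told apart from a joint rise.

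Enzymes of ω-hydroxylation, which oxidise the far end of a fatty acid in the endoplasmic reticulum, rose through the Cyp4a genes. Cyp4a1 measured 214, 271 and 142 CPM with WY-14643, 53.8, 51.6 and 53.6 CPM with DMSO and 9.26, 12.003 and 7.16 CPM in medium. The 3 groups did not overlap, and the change was 1.98 ± 0.22 against DMSO and 4.47 ± 0.26 against medium (adjusted p = 2.47e-10, edgeR). Cyp4a2 changed alike in size, by 2.16 ± 0.26 and 3.96 ± 0.30, and the 2 genes are near copies whose counts may be shared. In that list 3 of 11 probes were higher than both controls (1.1% of all probes), Cyp2j4, an epoxygenase, being the third at 0.57 ± 0.10 against DMSO.

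Ketogenesis showed 1 of 8 probes higher than both controls (1.1% of all probes), Acat1, the acetoacetyl-CoA thiolase, at 0.89 ± 0.15 against DMSO. Fgf21, a hormone of fasting, was at 0.25 ± 0.18 against DMSO and 0.26 ± 0.18 against medium and did not pass.

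Of 15 probes of lipid droplets and lipolysis 5 were higher than both controls (1.1% of all probes). Plin2, which coats lipid droplets, measured 1306, 1368 and 1087 CPM with WY-14643, 663, 699 and 648 CPM with DMSO and 602, 645 and 573 CPM in medium, and rose by 0.90 ± 0.09 against DMSO (adjusted p = 7.38e-08, edgeR) and by 1.05 ± 0.09 against medium. Hilpda and G0s2, both inhibitors of the lipase Pnpla2, rose by 1.11 ± 0.14 and 1.85 ± 0.17 against DMSO, and Pnpla2 itself rose by 0.80 ± 0.14. G0s2 lay higher in medium, at 24.5 ± 1.78 CPM (SD, n = 3), than in DMSO, at 10.7 ± 0.57 CPM, so its change against medium was smaller, 0.66 ± 0.16, and did not pass without WY-14643 replicate 2 or medium replicate 1.

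Of the receptor and its partners 1 of 23 probes was higher than both controls (1.1% of all probes). Ppara measured 34.3, 40.3 and 24.4 CPM with WY-14643, 36.7, 35.1 and 31.7 CPM with DMSO and 18.4, 19.1 and 17.4 CPM in medium. Its change was -0.06 ± 0.21 against DMSO (adjusted p = 0.917, edgeR) and 0.85 ± 0.22 against medium (adjusted p = 0.0172), and the latter call was lost without any of the 3 medium wells or without WY-14643 replicate 1 or 2. Rxra, the RXRα partner, did not pass against DMSO at -0.05 ± 0.10, and against medium it was at 0.32 ± 0.10 with an adjusted p of 0.0629, or 0.0154 with the replicate number as a block. Creb3l3, a liver transcription factor of lipid metabolism, was the member that rose, by 0.58 ± 0.14 against DMSO and 0.79 ± 0.14 against medium, the former lost without DMSO replicate 1 or WY-14643 replicate 2.

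Of 19 probes of glucose and glycerol handling 5 were higher than both controls (1.1% of all probes), Pdk4 among them. The median log2 change over the list was -0.043 against DMSO and 0.17 against medium. Without WY-14643 replicate 2 the probes higher than DMSO were 3. The glycerol channel gene Aqp9 was lower than DMSO, at -0.96 ± 0.27 (adjusted p = 0.0354, edgeR), a call lost without any of the DMSO wells or WY-14643 replicate 2 and under library totals. Gk, the glycerol kinase, measured 176, 202 and 133 CPM with WY-14643, 84.4, 74.5 and 73.1 CPM with DMSO and 48.4, 62.3 and 51.8 CPM in medium, and rose by 1.14 ± 0.11 against DMSO (adjusted p = 4.1e-08, edgeR). Fbp1, an enzyme of gluconeogenesis, rose by 0.62 ± 0.12 against DMSO and by 1.85 ± 0.13 against medium, and Gpd1, which links glycerol 3-phosphate to glycolysis, by 0.49 ± 0.11 and 1.34 ± 0.11, the former lost without WY-14643 replicate 2. Pck1, the phosphoenolpyruvate carboxykinase, rose by 0.96 ± 0.25 against DMSO from 5.08 CPM, a call lost without any of the DMSO wells or without WY-14643 replicate 2, and its call against medium (0.97 ± 0.25) was lost without WY-14643 replicate 2 or medium replicate 1 or 2. In lipogenesis and desaturation 3 of 22 probes were higher than both controls (1.1% of all probes). These were Me1 (0.82 ± 0.14 against DMSO), Dgat2 (0.38 ± 0.11) and 1 of 2 probes of Scd (0.96 ± 0.21), the main desaturase. Against DMSO the call of Scd was lost without DMSO replicate 2 or WY-14643 replicate 2, and that of Dgat2 without any DMSO well or without WY-14643 replicate 1 or 2, the latter gene losing its call against medium without WY-14643 replicate 1. Ucp2, an uncoupling protein relative, rose by 0.62 ± 0.10 and Vnn1, a pantetheinase, by 0.71 ± 0.09 against DMSO.

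Outside the lipid lists the xenobiotic genes Cyp2b1 and Cyp2b2, known as targets of the constitutive androstane receptor, were higher than both controls. Cyp2b1 was close to absent in the controls: its raw counts were 0, 1 and 1 with DMSO, 0, 2 and 1 in medium and 35, 52 and 32 with WY-14643. The ratio of summed counts over library totals was 57.2 against DMSO (95% interval 15.5 to 478, counting error only) and 37.1 against medium (12.4 to 182). Cyp2b2 measured 38.1, 52.0 and 25.5 CPM with WY-14643, 7.03, 11.7 and 7.06 CPM with DMSO and 1.41, 2.40 and 2.27 CPM in medium, and rose by 2.16 ± 0.33 and by 4.24 ± 0.40. The 2 genes are near copies, so counts may be shared between them. Of 7 probes of CAR and PXR targets these were the only ones higher than both controls (1.1% of all probes). With DESeq2 1 of the 7 was called higher than DMSO, in place of 2 with edgeR. None of the 7 AhR target probes passed against DMSO with edgeR or DESeq2, and 1 had an unadjusted p under 0.05. Against medium 1 was higher (3.1% of all probes), the aldehyde dehydrogenase gene Aldh3a1 at 1.32 ± 0.22 (adjusted p = 0.00116, edgeR). Cyp1a1 was at 0.12 ± 0.30 against DMSO.

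Many probes passed against a single control. Against DMSO alone 284 probes were higher (2.35%) and 307 lower (2.54%), and against medium 375 were higher (3.1%) and 327 lower (2.7%). Of the 307 lower than DMSO, 259 were not called against medium, 35 were also lower than medium and 13 were higher than medium. Of the 284 higher than DMSO, 133 were also higher than medium. Scaling by library totals in place of TMM shifted the median of all probes by 0.11 on the log2 scale against DMSO and gave 595 higher and 154 lower. Against medium that scaling gave 524 higher and 184 lower. Leaving out single wells moved the 591 calls against DMSO to 280 when DMSO replicate 1 was left out and to 296 when DMSO replicate 2 was, and to 312, 246 and 964 in the absence of WY-14643 replicate 1, 2 and 3. The 702 calls against medium became 382, 260 and 1275 without WY-14643 replicate 1, 2 and 3, and 443, 455 and 402 without medium replicate 1, 2 and 3.

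**Figure D3:**
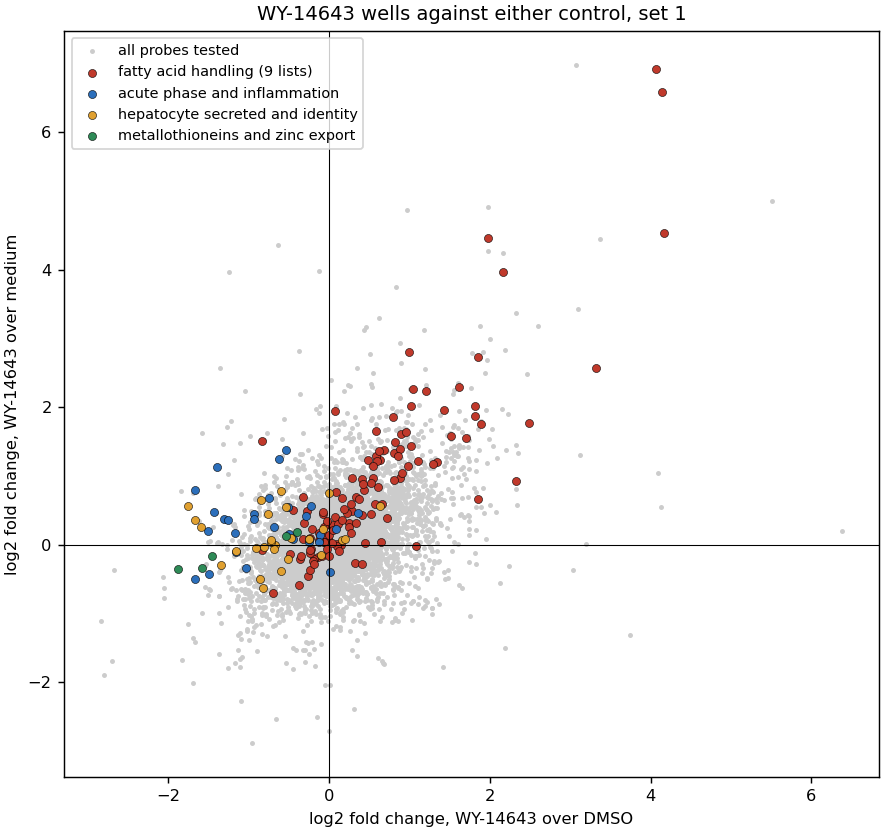
Log2 fold change of WY-14643 over DMSO (x axis) and over medium (y axis) for the 12102 probes tested in set 1, with 4 groups of genes in colour. The x and y values share the WY-14643 wells. Fatty acid probes extend into the upper right, with Fabp1 at 4.15 and 6.58, and many acute phase, hepatocyte and metallothionein probes lie left of 0 on the x axis, with medians of -0.71, -0.68 and -1.45 there and 0.31, 0.08 and -0.16 on the y axis.

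Genes of plasma proteins made by hepatocytes were among these falls. Of 28 probes of acute phase and inflammation genes 14 were lower than DMSO (background 2.54%). Against medium 1 was lower (background 2.7%) and 5 were higher (background 3.1%). The 5 became 8 with the replicate block, 9 under library totals, 3 without medium replicate 1 and 2 without medium replicate 3 or WY-14643 replicate 2. The 1 became 0 without WY-14643 replicate 1 or 2 or medium replicate 1 or 2, and 2 with the block or without replicate 3 of WY-14643 or medium. Against the mean of the other compounds 9 of the 28 were lower (background 3.12%), with 5 to 9 over the alternatives. In that comparison 1 was higher (background 4.24%), with 0 to 2 over the alternatives. Fga, the α chain of fibrinogen, measured 2256, 2312 and 2376 CPM with WY-14643, 6369, 6580 and 5851 CPM with DMSO and 1778, 1977 and 1252 CPM in medium. Fga fell by 1.44 ± 0.17 against DMSO on the log2 scale (adjusted p = 1.72e-05, edgeR), and against medium it was at 0.47 ± 0.16 with an adjusted p of 0.0993, or 0.0253 with the replicate number as a block. The other chains followed the same order, with Fgb at -1.502 ± 0.19 against DMSO and 0.20 ± 0.19 against medium, and Fgg at -1.26 ± 0.11 and 0.36 ± 0.11 (adjusted p = 0.0522, or 0.0166 with the block). A2m, a protease inhibitor, had both probes below DMSO, by 1.67 ± 0.24 and 1.499 ± 0.18, and its WY-14643 wells also had lower means than medium without passing (-0.49 ± 0.24 and -0.43 ± 0.18, the latter at an adjusted p of 0.00754 with the block). Orm1, an acute phase glycoprotein, fell by 1.04 ± 0.13 and C3, the central complement component, by 0.68 ± 0.10 against DMSO.

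Of 28 probes of hepatocyte identity and secreted proteins 18 were lower than DMSO (background 2.54%), with 11 to 20 over the alternatives. The count was 11 without DMSO replicate 1 or WY-14643 replicate 1. Against medium 1 was lower, close to the background of 2.7%, and 3 were higher (background 3.1%). Without WY-14643 replicate 1 or 2 the counts against medium were 0 lower and 1 higher, without medium replicate 1 or 2 none was lower, and without medium replicate 3 the number higher was 1. Relative to the mean of the other compounds 6 were lower (background 3.12%), with 3 to 16 over the alternatives, and none was higher. Albumin (Alb) measured 2288, 2313 and 2425 CPM with WY-14643, 4035, 3748 and 3421 CPM with DMSO and 2540, 2570 and 1969 CPM in medium, so WY-14643 and medium overlapped and DMSO lay above both. Plg, which encodes plasminogen, measured 12.5, 17.4 and 13.7 CPM with WY-14643 and 54.1, 48.9 and 29.0 CPM with DMSO, and its call (adjusted p = 0.0324, edgeR) was lost without DMSO replicate 1 or 2 or without any WY-14643 well. Bhmt, a methyltransferase of homocysteine, measured 48.0, 53.5 and 27.0 CPM with WY-14643, 183, 156 and 95.0 CPM with DMSO and 27.3, 39.0 and 21.0 CPM in medium. In bulk wells fewer hepatocytes and less of a transcript per hepatocyte cannot be told apart. The metallothioneins and zinc transporters, 5 probes, were each lower than DMSO (background 2.54%) and than the mean of the other compounds (background 3.12%). None passed against medium with edgeR or DESeq2, where 1 had an unadjusted p under 0.05. Against the other compounds the 5 became 3 without WY-14643 replicate 1 or 2, with Slc30a1 and Slc39a14 no longer called. Mt2A measured 14.96, 16.6 and 21.5 CPM with WY-14643, 72.1, 63.7 and 59.8 CPM with DMSO and 26.6, 25.8 and 15.6 CPM in medium. Of 11 probes of chaperones of the endoplasmic reticulum 6 were lower than DMSO (background 2.54%). Below the mean of the other compounds were 5 (background 3.12%), with 3 to 6 over the alternatives, and none was above it. None was lower than medium with edgeR or DESeq2, nor at an unadjusted p under 0.05.

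For 17 probes WY-14643 lay between the controls and differed from both. There were 13 below DMSO and above medium and 4 above DMSO and below medium. Cxcl10, an interferon-induced chemokine, measured 14.7, 20.1 and 17.1 CPM with WY-14643, 49.2, 45.8 and 41.3 CPM with DMSO and 7.15, 8.59 and 7.95 CPM in medium, a change of -1.40 ± 0.19 against DMSO and of 1.13 ± 0.21 against medium. Hdc, the histidine decarboxylase, was at -1.59 ± 0.30 and 1.62 ± 0.37, the latter call lost without WY-14643 replicate 2. Sod2, the mitochondrial superoxide dismutase, was at -0.32 ± 0.09 and 0.49 ± 0.09, and its call against DMSO was lost without DMSO replicate 1 or 2, without WY-14643 replicate 1 or 2, and under library totals. In the opposite order stood Myl9, a myosin light chain, at 1.283 ± 0.33 against DMSO and -1.003 ± 0.29 against medium, together with Lgals1, Lmcd1 and Sctr. Of the 2 calls of Myl9, that against DMSO was lost without DMSO replicate 1 or 3 or WY-14643 replicate 1, and that against medium without WY-14643 replicate 1 or 2 or medium replicate 1 or 3.

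**Figure D4:**
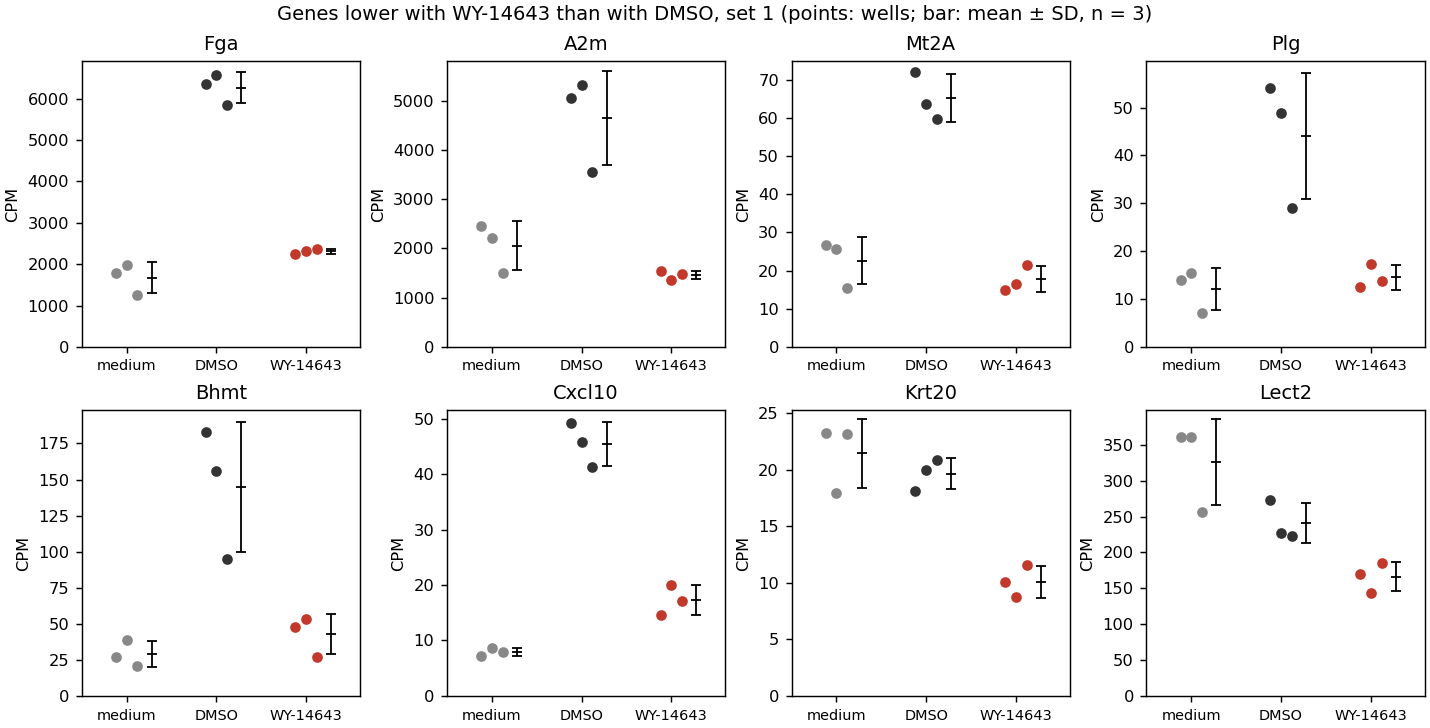
Levels (CPM, axes from 0) of 8 genes that were lower with WY-14643 than with DMSO, in the 3 medium, DMSO and WY-14643 wells of set 1, with mean ± SD (n = 3). For A2m and Krt20 the probe with the highest WY-14643 level is drawn. Fga has a mean of 6267 CPM in DMSO, 1669 CPM in medium and 2315 CPM with WY-14643, while Krt20 and Lect2 are lower with WY-14643 than in both controls.

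Lower than both controls were 35 probes (0.289%). Krt20, a keratin of simple epithelia, has 2 probes that both passed, the stronger measuring 10.1, 8.70 and 11.5 CPM with WY-14643, 18.1, 20.0 and 20.8 CPM with DMSO and 23.2, 17.9 and 23.2 CPM in medium. Its change was -0.96 ± 0.20 against DMSO and -1.08 ± 0.20 against medium (adjusted p = 0.000799, edgeR). The weaker probe was at -1.01 ± 0.30 and -1.11 ± 0.29, and its calls were lost without WY-14643 replicate 1 or 2, without any DMSO well, or without medium replicate 1 or 3. Lect2, a hepatokine, fell by 0.53 ± 0.13 against DMSO and by 0.97 ± 0.13 against medium. The call of Lect2 against DMSO was lost without DMSO replicate 1 or WY-14643 replicate 1 or 2. The keratin Krt18 and the cell junction genes Cdh1 and Cldn3 were also in this group, at -0.50 ± 0.09, -0.44 ± 0.08 and -0.60 ± 0.11 against DMSO. Of the 35, 10 stayed lower than both controls under scaling by library totals, 8 without WY-14643 replicate 1 and 3 without WY-14643 replicate 2.

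Some genes set WY-14643 apart from medium but not from DMSO. Lpl, the lipoprotein lipase, measured 25.3, 32.4 and 20.1 CPM with WY-14643, 24.1, 19.7 and 11.2 CPM with DMSO and 2.46, 6.06 and 2.95 CPM in medium, a rise of 2.77 ± 0.48 against medium and a value of 0.50 ± 0.41 against DMSO. Cyp2c6v1, a cytochrome P450 of the CYP2C family, was at 2.39 ± 0.33 against medium and 0.02 ± 0.28 against DMSO. Among the largest falls against medium were those of Il1r2, a decoy receptor for interleukin-1, at -2.27 ± 0.36, Car3, a carbonic anhydrase, at -1.78 ± 0.37, and the neurofilament Nefm at -1.62 ± 0.26. Against DMSO Il1r2 was at -1.10 ± 0.38, Car3 at 1.41 ± 0.41 and Nefm at 0.35 ± 0.29, and none of the 3 passed. The call of Car3 against medium was lost without WY-14643 replicate 1 or 2.

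Against the mean of the 15 wells of the other compounds 890 probes were called (7.35%), 513 higher (4.24%) and 377 lower (3.12%), and 128 of the 133 probes higher than both controls were also higher here. The 890 calls became 411 without WY-14643 replicate 1 and 269 without replicate 2, and scaling by library totals gave 763 higher and 221 lower. Of the 123 fatty acid probes 49 were higher and 1 was lower. Among the 12 genes with the largest rises were Fabp1, Acot1, Ehhadh, Pdk4, Fabp3, Cyp4a2, Cyp4a1, Acot7, Acsl1, Lpl and Abca4, a retinoid transporter, the last at 1.61 ± 0.15. Of the 7 AhR targets 5 were lower (background 3.12%), with Cyp1a1 at -1.72 ± 0.23, where the comparison group holds the AhR agonist benzo[a]pyrene. Of 22 lipogenesis and desaturation probes 11 were higher than the other compounds, with 7 to 11 over the alternatives, and none was called lower. Of 21 probes of antioxidant NRF2 targets 9 were lower than the other compounds, with 7 to 14 over the alternatives, and 1 was higher. Of 19 cholesterol synthesis probes 6 were higher than the other compounds, which became 1 without WY-14643 replicate 1 and 2 without replicate 2. Against DMSO 2 were lower, and 0 without any single DMSO well or WY-14643 replicate 1 or 2, and none was higher than DMSO with edgeR or DESeq2 or at an unadjusted p under 0.05. Cell cycle genes gave no call among 19 probes against DMSO, medium or the other compounds with edgeR or DESeq2, and 1 probe in each comparison had an unadjusted p under 0.05.

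The 3 WY-14643 wells did not respond alike. Among the 42 fatty acid probes higher than both controls, replicate 3 was the lowest of the 3 wells in 36 and replicate 2 the highest in 34, and the median ratio of replicate 3 to replicate 2 was 0.768, with a range of 0.419 to 1.23. Replicate 3 lay above all 6 control wells for each of the 42, which were chosen by tests that included replicate 3. Over all 133 probes higher than both controls, replicate 3 lay above all 6 control wells in 115 and not in 18. These 18 held no fatty acid probe, 9 of them carry locus names in place of gene symbols, and their median log2 ratio to the mean of the control wells was 1.14 in replicate 1, 1.36 in replicate 2 and 0.04 in replicate 3. Map4, a microtubule-associated protein, is an example, with 27.9, 29.9 and 7.93 CPM with WY-14643, 6.79, 8.90 and 6.61 CPM with DMSO and 9.02, 10.2 and 8.97 CPM in medium. Replicates 1 and 2 are, among the 24 libraries used, those with counts in the most probes, and the part of that difference in these calls was not tested.

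**Figure D5:**
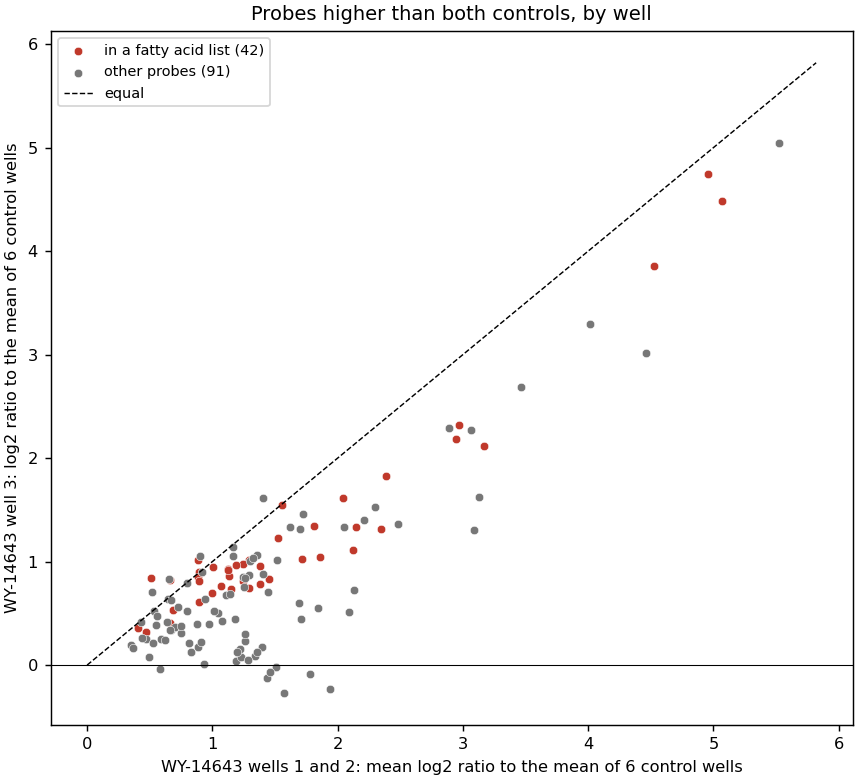
The 133 probes higher with WY-14643 than with both controls, by well: log2 ratio to the mean of the 6 control wells for the mean of WY-14643 wells 1 and 2 (x axis) and for well 3 (y axis), with fatty acid probes in red. Most points lie under the dashed line of equal response, and the points near 0 on the y axis are grey.

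Set 2 holds WY-14643, DMSO and medium wells of the same cell type, 3 of each, where WY-14643 is labelled 50 µM in the sample titles and 100 in the library names. The doses may differ, so values are set side by side and not compared. In set 2 Fabp1 was at 4.88 ± 0.22 against DMSO, Acot1 at 4.77 ± 0.22, Cyp4a1 at 2.22 ± 0.13 and Cpt1b at 1.95 ± 0.16, where set 1 had 4.15 ± 0.33, 4.07 ± 0.38, 1.98 ± 0.22 and 1.62 ± 0.16. There 77 probes were higher than DMSO (0.667% of 11538) and 27 lower (0.234%), and these 104 calls became 67 without DMSO replicate 4 of that set. Against medium 1029 were higher there (8.92%) and 925 lower (8.02%). These 1954 calls became 867, 895 and 1031 when WY-14643 replicate 4 or 5 or medium replicate 5 was left out and 3679 when medium replicate 6 was. Scaling by library totals gave 814 higher and 1297 lower. Of the probes tested in both sets, 58 were higher than both controls in each, which is 44.3% of the 131 in set 1 and 80.6% of the 72 in set 2. They include 33 fatty acid probes as well as Gk, Fbp1, Me1, Ucp2 and Cyp2b2. Of the 18 probes for which replicate 3 of set 1 did not lie above all control wells, none was higher than DMSO in set 2 and 8 were lower than medium there. Of the 115 for which replicate 3 did lie above them, 113 were tested in set 2. There 59 of these were higher than DMSO, and 79 were higher and 14 lower than medium. Among probes lower than both controls, 2 were shared, a probe of Krt20 among them, which is 5.71% of the 35 in set 1 and 100% of the 2 in set 2. Of the falls against DMSO alone, 23 were shared, which is 7.52% of 306 in set 1 and 85.2% of 27 in set 2.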

How the data were processed

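The authors deposited TempO-Seq counts for 22253 probes in 105 libraries, and the submitters' processing notes name FastQC, Bowtie, R 3.5.3 and DESeq2 1.28.1. No source used here gives the build or aligner settings. The deposited counts were analysed in R 4.3.3 with edgeR 4.0.16: filterByExpr (minimum count 10), TMM factors and robust quasi-likelihood tests with Benjamini-Hochberg adjustment, fitted over the 24 control and reference compound libraries of set 1, or the 9 of set 2, with the group as the only term. The nitroalkane libraries of both sets were left out. The SE of a log2 change was its size divided by the square root of F. DESeq2 1.42.0, other scalings and filters, a replicate block and leaving out each well were alternatives, and scaling by library totals was chosen after seeing the data. Genes are named from fixed lists and as the 12 largest calls in each direction with a mean of at least 10 CPM. The members and lists were chosen with earlier results of these data known. On simulated counts for the DMSO comparison, 75.5% of probes changed by a log2 of 1 and 88% of those changed by 2 were recovered, with 10 false calls. The simulated wells of a group varied independently, and none was made to stand apart as WY-14643 replicate 3 did. These figures may therefore not hold for the measured wells. Deviations of same-numbered wells correlated at 0.145, 0.122 and 0.197 between WY-14643 and medium, all above 0.1, so these numbers were taken to pair the wells. Between WY-14643 and DMSO they correlated at 0.182, -0.0049 and 0.177, and these numbers were not taken as pairs. The correlations are low, so the pairing is an assumption, and the main tests did not use it. In the block, wells of CITCO at 20 µM and rifampin at 40 µM in columns 1 to 3 shared numbers with wells in columns 10 to 12. Depth limits precision only for probes of few counts, and Poisson intervals cover counting error only. The formaldehyde control was not analysed here. Single values of a few genes are not reported here.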

Additional observations from a re-analysis of the deposited data

Results flagged for a closer look

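For 8 named probes every WY-14643 well of set 1 lay on one side of all wells of its control and every WY-14643 well of set 2 on the other side. The difference between the sets was not tested, and the labelled concentrations of the sets may differ. Plec, which encodes the cytoskeletal linker plectin, was at a log2 change of 1.80 against medium in set 1 and -1.98 in set 2, and passed the edgeR test in both. The call in set 1 was lost without WY-14643 replicate 2 or medium replicate 3, with only the compared libraries in the fit, and with the probes of a gene summed, where the change was 0.081. The other 7 did not pass in set 1. Against DMSO, the orphan receptor gene Esrra was at 0.58 in set 1 and -0.25 in set 2. Against medium, the probe of Eci2 with the higher level, for an isomerase of fatty acid oxidation, was at -0.065 in set 1 and 0.71 in set 2. The other probe of Eci2 was higher than both controls in set 1, at 0.84 against medium and 0.60 against DMSO, the latter lost without DMSO replicate 2 or 3 or WY-14643 replicate 2. Asns, the asparagine synthetase, was at -0.27 and 0.62, and Akr1c14, a hydroxysteroid dehydrogenase, at -0.33 and 0.48. The glucose transporter Slc2a2 was at -0.51 and 0.50, Myc at -0.25 and 0.39, and the corepressor Ncor1 at 0.29 and -0.48.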

How the results depend on the processing

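Of 134 named probes called against DMSO, 90 kept their call under every alternative that gave a value, and 186 of 1862 values were no longer past the threshold. Against medium 80 of 117 kept it and 126 of 1621 values did not pass, and against the other compounds 95 of 144 and 218 of 3732. No called value changed sign. The probe of Scd with few counts, uncalled and slightly below 0 on its own, was at 0.94 against DMSO and 1.41 against medium when the probes of a gene were summed, because the sum takes in the stronger probe. With single wells left out, the calls ran from 246 to 964 against DMSO, from 260 to 1275 against medium, from 269 to 1303 against the other compounds and from 63 to 482 against both controls, and in set 2 from 67 to 90 against DMSO and from 867 to 3679 against medium. The highest counts of set 1 came without WY-14643 replicate 3. In set 2 the 104 calls against DMSO became 163 with DESeq2 and 196 with no filter on low counts, and the 1029 higher and 925 lower calls against medium became 814 and 1297 under library totals. With the replicate number as a block the calls were 662 against DMSO, 796 against medium, 915 against the other compounds and 189 against both controls, and in set 2 107 and 1810. In the comparison with medium, the numbers were taken to pair the wells. There the block also brought Pdk3, Rbp4, Phyh, Akr1b8, Acta1, Ddit3, Tagln, Cidec, Acox2, C4bpa, Hpd and Thrsp past the threshold. It ended the call of Akr7a3 and changed no other call of a named probe. Between WY-14643 and DMSO the numbers were not taken to pair the wells. In that comparison replicates 1 and 3 but not replicate 2 correlated best with their own number. Where a cause is not given, the cause was not tested. Wells of a single cell lot limit what the p-values cover, and probes under the limit of 3 counts cannot show a fall.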

Other observations

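Some further genes outside the lists of fatty acid handling were higher with WY-14643 than with both controls. Retsat, a retinol saturase, was at 0.96 against DMSO and 1.51 against medium, and Adtrp, a hydrolase of fatty acid esters, had a probe at 0.88 and 1.42. Mpc2, a subunit of the mitochondrial pyruvate carrier, was at 0.35 and 0.73. Among genes of the ATF4 and amino acid response, 4 of 17 probes were higher than DMSO (background 2.35%), which became 2 without DMSO replicate 1 or 2 and 1 without WY-14643 replicate 1 or 2, and none was higher than medium with edgeR, DESeq2 or at an unadjusted p under 0.05. Of 15 probes of actin and serum response factor targets 5 were lower than medium (background 2.7%) and 1 was higher than DMSO (background 2.35%). The 5 became 0 without WY-14643 replicate 2 or medium replicate 3, 2 without WY-14643 replicate 1 or under library totals, and 3 without medium replicate 2. The 1 became 0 without DMSO replicate 1 or 3 or WY-14643 replicate 1, and 4 under library totals or with DESeq2.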
